A study of Mus musculus with 12 samples.

Results

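The microRNAs miR-204 and miR-211 of the mouse retina were described here by every read that aligned to the precursors mmu-mir-204 and mmu-mir-211. These are 2 of the 1532 precursors seen in the series, of which 997 are annotated and 535 were predicted by the submitters. They drew 694433 reads of 1050 distinct sequences, out of 62878432 counted reads of 102062 distinct sequences in all. Each read was counted once and assigned to the 5p or the 3p arm by the side of the precursor's middle on which it lay. Both arms of both precursors passed the filter on low counts, so all 4 arms were tested.

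The 12 small RNA libraries came from 6 db/db mouse samples given Keluoxin, a Chinese herbal capsule, and 6 db/db samples labelled model, read here as mice that received no Keluoxin. All 12 carry the db/db genotype, which removes the working leptin receptor and gives obese, diabetic mice, and all have a KsJ strain background. Dose, route, duration and age are not stated in the labels, and no non-diabetic mice were analysed. The labels name the retina as the source, although their extraction protocol mentions exosomes. Whether each library stands for its own animal is not stated, so every p-value here reflects the variation among libraries, part of which may be technical. The comparison asks how miRNA levels and forms in Keluoxin libraries differed from those in model libraries.

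MicroRNAs are cut from a hairpin precursor in pairs of strands, and 1 strand of about 22 nt is usually kept in the silencing complex, where the bases from 2 to 8, the seed, pair with target messages. In the eye, miR-204 and miR-211 are known from the retinal pigment epithelium, where they are abundant and help to keep the epithelial state, and miR-204 is also expressed in the ciliary body, the lens and the neural retina. Both lie in introns of genes for cation channels of the melastatin family, and Trpm1, the host of mir-211, is a target of the pigment cell factor MITF.

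The mature sequences are shown first, because both the shared seed and the single base that separates the 5p arms decide how their reads can be told apart. The seed is in capitals, the sequences are those of RefSeq for GRCm38.p6, and all 4 arms were matched by miRNA name.
mmu-miR-204-5p: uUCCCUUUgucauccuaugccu
mmu-miR-211-5p: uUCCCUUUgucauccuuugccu
mmu-miR-204-3p: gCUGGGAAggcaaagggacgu
mmu-miR-211-3p: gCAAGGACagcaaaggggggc
The 5p arms differed by A17U alone, with positions counted from 1 at the 5′ end and the base of miR-204 given first. The 3p arms, both 21 nt long, differed at 7 positions, U3A, G4A, A8C, G9A, A18G, C19G and U21C, and had different seeds. The seed of the 5p arms was held by 3 of 1738 mature mouse miRNAs of RefSeq, the third being miR-7670-3p.

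The hairpins are shown with both mature arms in capitals, to place the ends of the reads described below. They were identical to the precursors in the deposited files.
mir-204: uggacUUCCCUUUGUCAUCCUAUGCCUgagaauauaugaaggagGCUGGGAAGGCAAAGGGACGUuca
mir-211: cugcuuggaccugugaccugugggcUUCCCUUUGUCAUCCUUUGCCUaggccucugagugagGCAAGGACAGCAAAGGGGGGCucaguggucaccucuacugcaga
In GRCm38.p6, mir-204 (68 nt) lies at chr19:22750605-22750672 on the plus strand, with the 5p arm at chr19:22750610-22750631 and the 3p arm at chr19:22750649-22750669. It is intronic, inside Trpm3 on the same strand, in 18 annotated transcripts and overlapping 0 Trpm3 exons. The mir-211 hairpin (106 nt) lies at chr7:64205806-64205911 on the plus strand, with the 5p arm at chr7:64205831-64205852 and the 3p arm at chr7:64205868-64205888. It is intronic in Trpm1, in 12 transcripts and overlapping 0 Trpm1 exons.

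The libraries held 1933375 to 7892147 counted reads, and at most 1 difference from the precursor was allowed in a read. The photoreceptor cluster of miR-183, miR-182 and miR-96, which marks sensory cells of the retina, summed to between 188168 and 380089 normalized CPM, reads scaled to a common library size, in Keluoxin libraries and between 354306 and 418366 CPM in model libraries. Keluoxin replicate 4 had the lowest of these sums. The same library held 9994 CPM of miR-184-3p, an abundant miRNA of the cornea and lens, whereas the other Keluoxin libraries had 69.95 to 179.2 CPM and the model libraries 62.1 to 380.4 CPM. It also held 542.8 CPM of miR-31-5p, an epithelial miRNA, against 13.06 to 28.41 CPM in the other Keluoxin libraries. Results that this library moves are given with and without it, and the part of other tissue in them was not tested.

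None of the 4 arms differed between Keluoxin and model libraries in level, while 140 of all 811 tested arms, 17.3%, did at an adjusted p under 0.05 (edgeR's quasi-likelihood test with the Benjamini-Hochberg method). At an unadjusted p under 0.05 edgeR had 0 of the 4 arms, and DESeq2 called 0 of them, with adjusted p from 0.3265 to 0.861. Of the 811 arms 9.25% were higher (75 arms) and 8.01% lower (65 arms) in Keluoxin libraries. That split depended on the scaling, with 89 higher and 26 lower after scaling to total reads and 72 higher and 110 lower after upper quartile scaling. In RNA from whole tissue, fewer cells of a type and less of an RNA per cell cannot be told apart.

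The main product was miR-204-5p, which ranked 22 among the annotated arms by mean level. Its normalized CPM had a lowest value of 7138, a median of 7302 and a highest of 7761 in Keluoxin libraries, against 6035, 7209 and 8092 in model libraries. The Keluoxin range lay wholly inside the model range. Mean levels were 7398 ± 283 CPM in Keluoxin libraries and 7122 ± 695 CPM in model libraries (SD, n = 6 each), a log2 fold change of 0.05 with a standard error of 0.08 (edgeR adjusted p = 0.620). The libraries held 14049 to 53927 reads of it with Keluoxin and 25540 to 55766.5 in model, so that counting error was small beside the spread between libraries.

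For miR-211-5p, which has the same seed and ranked 33, the lowest, median and highest levels were 3075, 3715 and 4348 CPM in Keluoxin libraries, against 2812, 3405 and 4163 CPM in model libraries. The ranges overlapped, with 1 Keluoxin library above every model library. The means were 3728 ± 426 CPM with Keluoxin and 3495 ± 489 CPM in model (SD, n = 6 each), a log2 fold change of 0.09 with a standard error of 0.11 (edgeR adjusted p = 0.553). The direction of both 5p arms depended on the scaling. Over all arms the median log2 fold change was 0.03 with TMM scaling, -0.23 with upper quartile scaling and 0.22 with scaling to total reads, and with upper quartile scaling miR-204-5p stood at -0.21 and miR-211-5p at -0.18, near that median.

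The 2 arms together, which present 1 seed, summed to 11126 ± 666 CPM in Keluoxin libraries and 10618 ± 1021 CPM in model libraries (SD, n = 6 each). As a share of counted reads this was 1.19% ± 0.113 with Keluoxin and 1.00% ± 0.115 in model, with 3 Keluoxin libraries above every model library. The share was not tested, and it is lowered or raised by any other RNA that takes reads in a library.

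The 3p arms were rare. For miR-204-3p, whose strand is mostly discarded, the lowest, median and highest levels were 50.73, 52.67 and 91.86 CPM in Keluoxin libraries, against 41.69, 50.14 and 57.09 CPM in model libraries. The highest value came from Keluoxin replicate 4, and the other 5 Keluoxin libraries ended at 57.49 CPM. The log2 fold change was 0.27 with a standard error of 0.17 (edgeR adjusted p = 0.256), and 0.10 without that library (adjusted p = 0.542). It was 0.0078 with upper quartile scaling and 0.49 with scaling to total reads.

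For miR-211-3p the lowest, median and highest levels were 24.83, 39.67 and 78.09 CPM in Keluoxin libraries, against 40.58, 53.86 and 85.10 CPM in model libraries. In Keluoxin libraries 3 values lay below every model library, and replicate 4 had the highest of that group. The log2 fold change was -0.40 with a standard error of 0.28 (edgeR adjusted p = 0.318), and -0.64 without replicate 4 (adjusted p = 0.100). It was -0.68 with upper quartile scaling and -0.18 with scaling to total reads. The arm rested on 47 to 590 reads in Keluoxin libraries and 142 to 637 in model libraries, and Keluoxin replicate 5, with 47 reads, has an exact 95% Poisson interval of 34.5 to 62.5 reads, which covers counting error only.

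**Figure D1:**
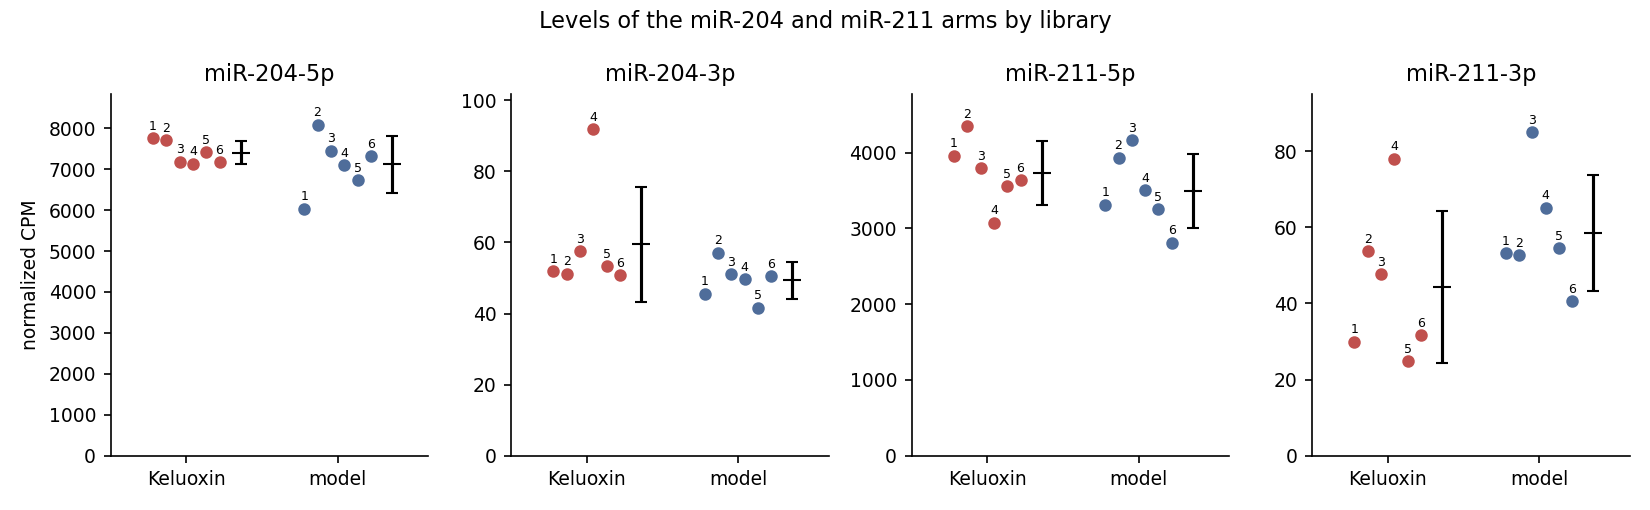
Normalized CPM (vertical axis) of the 4 arms in each library, numbered by replicate, for Keluoxin (left) and model (right); black marks are the mean and SD of 6 libraries. The groups overlap in every arm, and Keluoxin replicate 4 stands highest of its group in both 3p arms, at 91.86 CPM for miR-204-3p and 78.09 CPM for miR-211-3p.

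**Figure D2:**
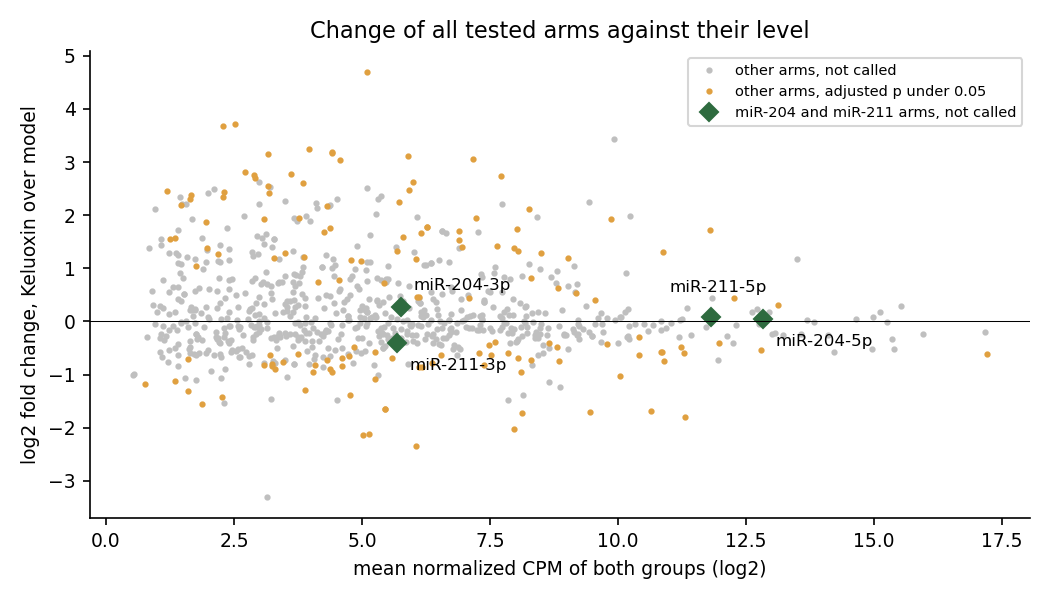
Log2 fold change of Keluoxin over model (vertical axis) against log2 of the mean normalized CPM (horizontal axis) for 811 arms. The 4 arms of mir-204 and mir-211 (diamonds) lie between -0.40 and 0.27 and are not among the 140 called arms (orange).

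The balance of the arms within a hairpin does not depend on the scaling of libraries. In mir-211 the number of 5p reads per 3p read lay above every model library in 5 of 6 Keluoxin libraries. The lowest, median and highest number of 5p reads per 3p read were 39.4, 97.8 and 143 in Keluoxin libraries, against 48.9, 61.0 and 74.6 in model libraries. The lowest value, below every model library, was that of Keluoxin replicate 4. On the log2 scale the difference of 0.57 with a standard error of 0.28 did not pass the test (limma over 143 miRNAs, adjusted p = 0.171), and 28 of those miRNAs, 19.6%, did. Without Keluoxin replicate 4 the difference was 0.81 and passed (limma adjusted p = 0.0150). It did not pass when any other single library was left out (limma adjusted p from 0.1673 to 0.2905). The share of all miRNAs that pass without Keluoxin replicate 4 was not counted. Nor was the share in which 5 of 6 Keluoxin libraries lay beyond every model library.

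In mir-204 the lowest, median and highest numbers of 5p reads per 3p read were 77.7, 140 and 151 in Keluoxin libraries, against 132, 144 and 162 in model libraries. The groups overlapped apart from Keluoxin replicates 3 and 4, at 125 and 77.7, which lay below every model library. The log2 difference was -0.18 with a standard error of 0.17 (limma adjusted p = 0.464), and -0.04 without replicate 4 (adjusted p = 0.813). Whether the arm balance of the 2 hairpins differed in its response was not tested.

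The proportion of the 2 seed-sharing miRNAs was compared within each library. The lowest and highest numbers of miR-211-5p reads per miR-204-5p read over the 12 libraries were 0.384 and 0.563. The ratio averaged 0.503 ± 0.0451 in Keluoxin libraries and 0.492 ± 0.0623 in model libraries (SD, n = 6 each; exact permutation test, two-sided p = 0.712). About a pair of miR-204-5p reads was thus present for each miR-211-5p read, with 1.77 at the lowest and 2.60 at the highest.

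**Figure D3:**
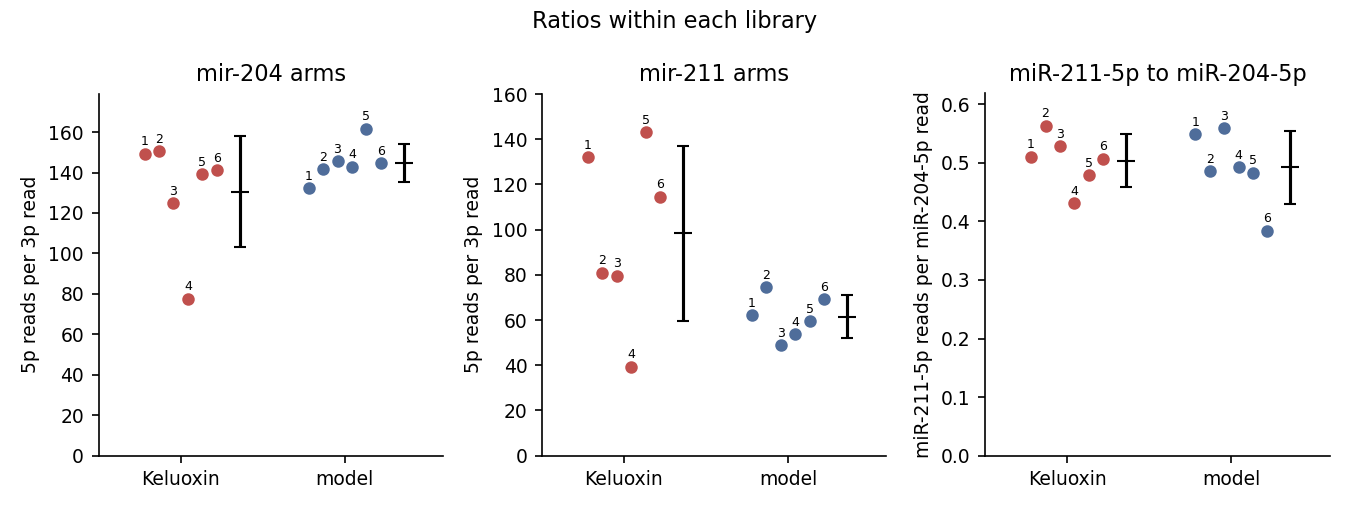
Reads of the 5p arm per read of the 3p arm in mir-204 and mir-211, and miR-211-5p reads per miR-204-5p read, in each library, numbered by replicate, with Keluoxin left of model; black marks are the mean and SD of 6 libraries. For mir-211, 5 Keluoxin libraries lie at 79.7 or more and the model libraries at 74.6 or less, while Keluoxin replicate 4 is at 39.4.

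Across libraries the levels of the 5p arms varied together to a degree that depended on the scaling. Over the 12 libraries the log2 normalized CPM of miR-211-5p and miR-204-5p had a Pearson r of 0.515 (permutation p = 0.0840, adjusted p = 0.120 over 4 sets of libraries) and a Spearman rho of 0.706 (permutation p = 0.0128, adjusted p = 0.0511). Within groups r was 0.742 over the 6 Keluoxin libraries (permutation p = 0.0903, adjusted p = 0.120) with a rho of 0.771 (permutation p = 0.103, adjusted p = 0.137), and 0.424 over the 6 model libraries (permutation p = 0.389) with a rho of 0.543 (permutation p = 0.297). Without model replicates 1 and 2, the libraries farthest from the median, r was 0.583 (permutation p = 0.0741, adjusted p = 0.120) and rho 0.685 (permutation p = 0.0350, adjusted p = 0.0700). With upper quartile scaling r was 0.858 (permutation p = 0.00039), and with scaling to total reads 0.735 (permutation p = 0.00596); a common scale factor enters both miRNAs.

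As a description over the 12 libraries, the annotated arms of at least 100 CPM whose level followed miR-204-5p most closely were let-7d-5p (r = 0.79), let-7a-1-3p (r = 0.77), let-7c-2-3p (r = 0.77), miR-495-3p (r = 0.71) and miR-98-5p (r = 0.70), out of 178 arms compared. For miR-211-5p they were miR-499-5p and miR-369-3p (r = 0.91 each), miR-328-3p (r = 0.87), miR-190b-5p (r = 0.86) and miR-384-5p (r = 0.85). In the order of likeness miR-211-5p stood 16 for miR-204-5p, and miR-204-5p stood 34 for miR-211-5p. All these levels share the libraries and their scaling. The levels of let-7a-1-3p and let-7c-2-3p were nearly equal, at 104.96 and 105.09 CPM in Keluoxin libraries and 103.00 and 103.01 CPM in model libraries. Reads on several arms were shared equally, so this pair may be largely the same reads, which was not counted.

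The other miRNAs of the eye list, chosen for pigment epithelium and the anterior segment, were miR-184-3p, miR-205-5p and miR-31-5p, and 0 of the list's 7 tested arms were called higher or lower. At an unadjusted p under 0.05 edgeR had 1 of them, miR-184-3p, while DESeq2 called 0 and gave no adjusted p for miR-184-3p and miR-31-5p. Its median was 144 CPM in Keluoxin libraries and 115 CPM in model libraries, and the log2 fold change of 3.43 (edgeR adjusted p = 0.0883) became -0.31 without Keluoxin replicate 4. For miR-31-5p the median was 21.8 CPM in Keluoxin libraries and 27.6 CPM in model libraries, and the log2 fold change of 1.96 (edgeR adjusted p = 0.152) became -0.43 without that library. For miR-205-5p, an epithelial miRNA of skin and cornea, the median was 6.58 CPM in Keluoxin libraries and 13.8 CPM in model libraries, with a log2 fold change of -1.05 (edgeR adjusted p = 0.415). This became -1.78 without Keluoxin replicate 4, the highest of its group at 21.71 CPM, and -0.53 without model replicate 6. The median log2 fold change of the 7 arms was 0.09, against 0.03 over all arms.

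The reads themselves showed how the strands ended, which was compared next. The most frequent reads of miR-204-5p are shown because they differ only at the 3′ end, with a base that differs from the precursor in capitals.
miR-204-5p, as annotated: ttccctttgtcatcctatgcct
miR-204-5p, ending in A: ttccctttgtcatcctatgccA
miR-204-5p, ending in C: ttccctttgtcatcctatgccC
miR-204-5p, ending in G: ttccctttgtcatcctatgccG
miR-204-5p, extended by the next base of the hairpin: ttccctttgtcatcctatgcctg
miR-204-5p, extended and ending in T: ttccctttgtcatcctatgcctgT
The annotated 22-nt read made up 32.1% ± 2.55 of the reads of the arm in Keluoxin libraries and 37.0% ± 1.92 in model libraries (SD, n = 6 each). The form T22A made up 9.95% ± 1.45 with Keluoxin and 7.25% ± 0.483 in model. The form T22C made up 8.84% ± 1.36 with Keluoxin and 5.89% ± 1.18 in model, and the ranges of both forms overlapped between the groups. The form T22G made up 6.60% ± 1.42 in Keluoxin libraries and 2.88% ± 0.405 in model libraries, with no overlap, since the Keluoxin libraries began at 4.61% and the model libraries ended at 3.39%. The exact 23-nt read went the other way, at 5.11% ± 0.616 with Keluoxin and 9.65% ± 0.954 in model, again with no overlap, while the 24-nt read with A24T had 5.67% ± 0.504 with Keluoxin and 6.05% ± 0.328 in model. A differing last base G separated the groups in the median of 382 arms too, at 5.14% with Keluoxin and 2.84% in model. There 6 of 6 Keluoxin libraries lay above every model library, and limma called 46.3% of the arms higher. For single read forms the share of all arms without overlap was not counted.

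The most frequent reads of miR-211-5p held the same 4 ends at 22 nt, along with shorter reads, and are shown for comparison.
miR-211-5p, as annotated: ttccctttgtcatcctttgcct
miR-211-5p, ending in A: ttccctttgtcatcctttgccA
miR-211-5p, ending in C: ttccctttgtcatcctttgccC
miR-211-5p, ending in G: ttccctttgtcatcctttgccG
miR-211-5p, shorter by 1 base: ttccctttgtcatcctttgcc
miR-211-5p, 21 nt ending in T: ttccctttgtcatcctttgcT
miR-211-5p, 20 nt: ttccctttgtcatcctttgc
The annotated read made up 31.2% ± 2.17 of the arm in Keluoxin libraries and 33.9% ± 1.57 in model libraries (SD, n = 6 each), and these ranges overlapped. The form T22G made up 6.76% ± 1.55 with Keluoxin and 2.77% ± 0.271 in model, with 4.55% as the lowest Keluoxin and 3.16% as the highest model value. The exact 21-nt read had 5.76% ± 0.743 in Keluoxin libraries and 8.26% ± 0.559 in model libraries, and the exact 20-nt read 3.48% ± 0.448 with Keluoxin and 5.69% ± 0.647 in model, neither of them overlapping between the groups. The 21-nt read with C21T made up 5.56% ± 0.700 with Keluoxin and 6.83% ± 0.687 in model. As for miR-204-5p, the G end rose in the median arm as well, and the share of all arms without overlap in such read forms was not counted.

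Reads that matched the precursor along their whole length were a smaller part of both 5p arms in Keluoxin libraries. For miR-204-5p their share was 43.1% ± 2.70 in Keluoxin libraries and 55.2% ± 2.45 in model libraries (SD, n = 6 each), a difference of -12.0 percentage points, with 6 of 6 Keluoxin libraries below every model library (exact permutation test, two-sided p = 0.00216, the smallest the design can give; adjusted p = 0.00577 over 8 measures). For miR-211-5p the shares were 42.9% ± 2.39 with Keluoxin and 51.6% ± 1.57 in model, a difference of -8.71 points with the same separation and the same p-values. This share was lower across the libraries as a whole: over 382 arms that had 50 or more reads in each library, limma called 57.3% lower in Keluoxin libraries, and the median arm's share was 47.3% ± 2.10 with Keluoxin and 54.4% ± 1.55 in model. Set against the median arm of the same library, an alternative added after the data were seen, the differences were -4.93 points for miR-204-5p (exact permutation test, adjusted p = 0.00577) and -1.61 points for miR-211-5p (adjusted p = 0.0130). The share of all arms that would pass this alternative was not counted. Before the median was taken off, 7.33% of the 382 arms fell further than miR-204-5p and 26.4% further than miR-211-5p.

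Reads whose last base differed from the precursor were a larger part of both arms in Keluoxin libraries. In miR-204-5p their share ran from 37.5% to 46.8% in Keluoxin libraries, against 33.8% to 38.2% in model libraries, with means of 44.5% ± 3.50 with Keluoxin and 35.8% ± 1.64 in model (SD, n = 6 each; adjusted exact permutation p = 0.00866). In 5 of 6 Keluoxin libraries it lay above every model library, and Keluoxin replicate 4, at 37.5%, lay among the model libraries. In miR-211-5p the share was 42.8% ± 3.63 in Keluoxin libraries and 36.9% ± 0.946 in model libraries, with 5 of 6 Keluoxin libraries above every model library (exact permutation test, adjusted p = 0.0208). Keluoxin replicate 4 was again the exception, at 35.9%. Without it the differences were 10.1 points in miR-204-5p and 7.35 points in miR-211-5p (adjusted exact permutation p = 0.00693 for both), against 8.71 and 5.97 points with it. Of the 382 arms 24.3% were called higher by limma, and the median arm stood at 31.7% ± 3.36 with Keluoxin and 27.1% ± 1.55 in model. Relative to the median arm the difference was 4.05 points in miR-204-5p, with 6 of 6 Keluoxin libraries above every model library (exact permutation test, adjusted p = 0.00577), and 1.31 points in miR-211-5p, which did not pass (adjusted p = 0.104). How many of all arms would separate or pass in this way was not counted. Before the median was taken off, 93.5% of the 382 arms had a lower difference than miR-204-5p and 77.5% a lower one than miR-211-5p.

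The bases at these ends shifted towards G and C and away from T. Reads of miR-204-5p with a differing last base G were 8.09% ± 1.86 of the arm in Keluoxin libraries and 3.62% ± 0.534 in model libraries, and those of miR-211-5p were 8.36% ± 1.97 with Keluoxin and 3.83% ± 0.340 in model (SD, n = 6 each; limma over 382 arms, adjusted p = 0.00904 for both). All 6 Keluoxin libraries lay above every model library in both miRNAs, and 46.3% of the 382 arms were called higher. A differing last base C was found in 11.4% ± 1.86 of miR-204-5p reads with Keluoxin and 7.58% ± 1.62 in model (limma adjusted p = 0.00962). For miR-211-5p this was 9.62% ± 1.64 with Keluoxin and 6.07% ± 1.26 in model (limma adjusted p = 0.00626), where 52.6% of arms were higher. A differing last base T fell to 12.2% ± 0.439 of miR-204-5p reads in Keluoxin libraries, against 13.9% ± 0.405 in model libraries (limma adjusted p = 0.000622), and to 10.9% ± 0.891 of miR-211-5p reads in Keluoxin libraries, against 14.2% ± 1.33 in model libraries (limma adjusted p = 0.00430). Only 9.95% of arms were called lower for T, while 14.9% were higher. Of the arms 1.57% were called higher for A, where the shares were 12.8% ± 1.74 with Keluoxin and 10.7% ± 0.655 in model for miR-204-5p (limma adjusted p = 0.0703), and 13.9% ± 1.76 with Keluoxin and 12.7% ± 0.798 in model for miR-211-5p (limma adjusted p = 0.317).

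**Figure D4:**
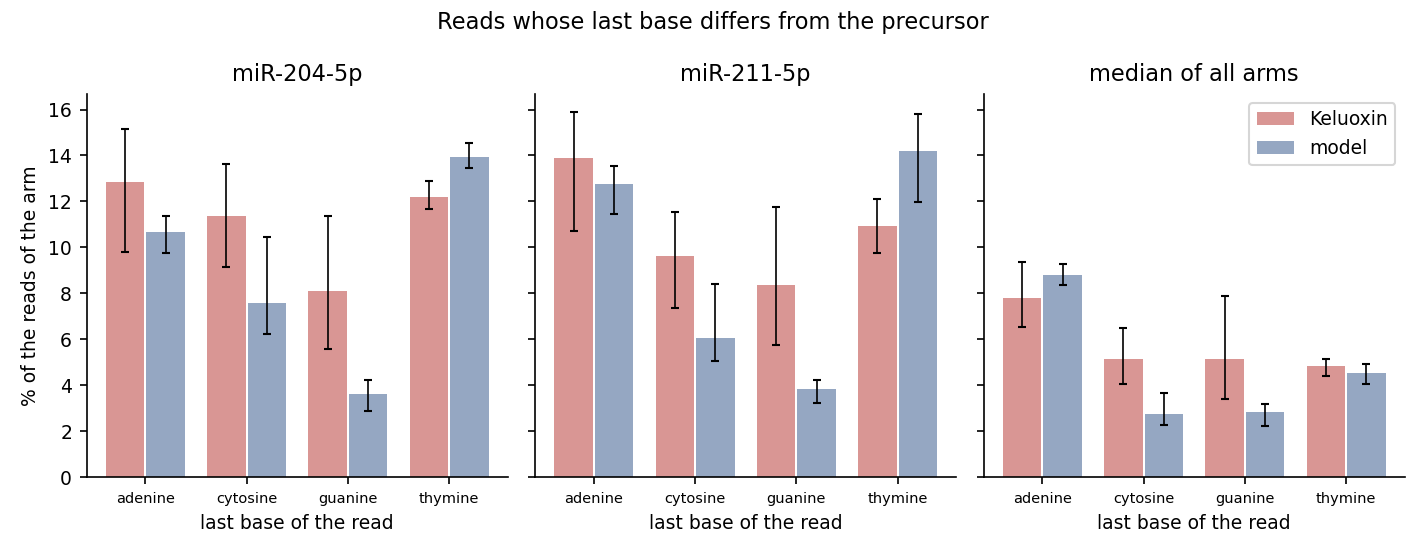
Share of an arm's reads whose last base differs from the precursor (vertical axis, percent), by that base, for miR-204-5p, miR-211-5p and the median of 382 arms, Keluoxin left of model; bars are means of 6 libraries and whiskers run from the lowest to the highest library. Guanine ends are more frequent in Keluoxin libraries in all 3 panels, at 8.09% against 3.62% in miR-204-5p, and thymine ends are less frequent in both miRNAs.

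Among exact reads that began at the main 5′ start, the 22-nt form was a larger part in Keluoxin libraries. It made up 74.5% ± 1.48 for miR-204-5p with Keluoxin and 67.2% ± 1.36 in model (SD, n = 6 each; limma adjusted p = 0.000220), and 73.1% ± 2.46 with Keluoxin and 66.0% ± 2.64 in model for miR-211-5p (limma adjusted p = 0.00697), with 6 of 6 Keluoxin libraries above every model library in both. Of the 382 arms 15.7% were called higher in the share of their main length. The remaining exact reads were more often longer than 22 nt in miR-204-5p in 11 of 12 libraries, all but Keluoxin replicate 4, where 11.2% were longer and 12.2% shorter. In miR-211-5p they were more often shorter in 12 of 12 libraries; neither count was tested. In miR-204-5p the 23-nt form was at 11.9% ± 1.56 of exact reads in Keluoxin libraries and 17.5% ± 1.40 in model libraries. In miR-211-5p that form was rare, at 2.23% ± 0.235 with Keluoxin and 2.04% ± 0.158 in model. There the 20-nt form was at 8.15% ± 0.923 with Keluoxin and 11.1% ± 1.07 in model, and the 21-nt form at 13.5% ± 1.78 with Keluoxin and 16.1% ± 1.17 in model.

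The mean length of all reads moved in miR-211-5p. It was 21.69 ± 0.0523 nt in Keluoxin libraries and 21.54 ± 0.0479 nt in model libraries (SD, n = 6 each), a difference of 0.154 nt with 6 of 6 Keluoxin libraries above every model library (exact permutation test, adjusted p = 0.00577), where limma called 5.5% of 382 arms longer. For miR-204-5p the means were 22.17 ± 0.0515 nt with Keluoxin and 22.16 ± 0.0355 nt in model, with overlapping ranges (exact permutation test, adjusted p = 0.729). Without each Keluoxin or model library in turn the difference in miR-211-5p stayed between 0.137 and 0.164 nt.

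**Figure D5:**
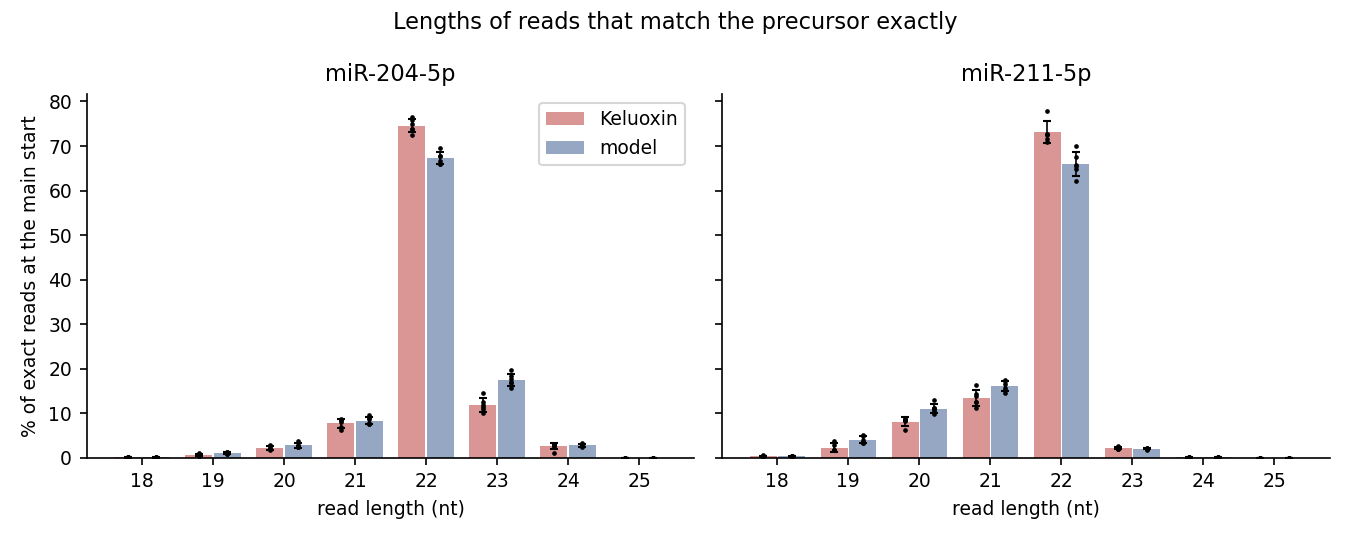
Length in nt (horizontal axis) of exact reads at the main start of miR-204-5p and miR-211-5p, as percent of those reads (vertical axis), Keluoxin left of model; bars and whiskers are the mean and SD of 6 libraries and dots are libraries. The 22-nt form is higher in Keluoxin libraries for both miRNAs, and the 23-nt form, at 11.9% with Keluoxin and 17.5% in model, is prominent for miR-204-5p.

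The 5′ ends, which set the seed, were almost uniform. The main start was used by 99.88% ± 0.0733 of miR-204-5p reads in Keluoxin libraries and 99.89% ± 0.0341 in model libraries (SD, n = 6 each; adjusted exact permutation p = 0.729). For miR-211-5p it was 99.49% ± 0.176 with Keluoxin and 99.61% ± 0.154 in model (exact permutation test, adjusted p = 0.323). Reads starting 1 base later, whose seed would be shifted, were 0.0666% ± 0.0434 of miR-204-5p with Keluoxin and 0.0588% ± 0.0215 in model, and 0.254% ± 0.104 of miR-211-5p with Keluoxin and 0.211% ± 0.0637 in model. A difference from the precursor inside bases 2 to 8 was found in 1.31% ± 0.379 of miR-204-5p reads with Keluoxin and 1.51% ± 0.0979 in model, and in 1.26% ± 0.361 of miR-211-5p reads with Keluoxin and 1.32% ± 0.227 in model.

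Set against each other within the 12 libraries, over both groups, the miRNAs differed in their ends. Reads of miR-211-5p were shorter than those of miR-204-5p in 12 of 12 libraries, by 0.547 ± 0.0834 nt (SD of the differences; exact paired sign-flip permutation test, p = 0.000488, the smallest it can give, and adjusted p = 0.000977 over 4 measures). The main start was used less by 0.335 ± 0.165 percentage points, also in 12 of 12 libraries (exact permutation test, adjusted p = 0.000977). The share of exact reads was lower in miR-211-5p in all but 1 of the 12 libraries, by 1.89 ± 2.02 points (exact permutation test, adjusted p = 0.0143), and that of reads with a differing last base was higher in 6 of 12 (exact permutation test, adjusted p = 0.563). Among the 382 arms miR-204-5p exceeded 83.8% and miR-211-5p 62.0% in mean length.

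In the 3p arms the most frequent reads of mir-211 were shorter than the annotated 21 nt, and they are shown for that reason.
miR-211-3p, 20 nt: gcaaggacagcaaagggggg
miR-211-3p, 19 nt: gcaaggacagcaaaggggg
miR-211-3p, as annotated: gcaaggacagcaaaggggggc
miR-204-3p, as annotated: gctgggaaggcaaagggacgt
For miR-211-3p the 20-nt read made up 19.5% ± 3.56 in Keluoxin libraries and 21.7% ± 2.79 in model libraries, the 19-nt read 15.9% ± 2.15 with Keluoxin and 21.4% ± 2.26 in model, and the annotated 21-nt read 4.23% ± 2.65 with Keluoxin and 5.12% ± 1.29 in model (SD, n = 6 each). The annotated read of miR-204-3p was by contrast its main form, at 44.7% ± 5.92 with Keluoxin and 49.0% ± 2.58 in model. Exact reads of miR-204-3p ran from 47.5% to 65.3% in Keluoxin libraries, against 63.8% to 69.2% in model libraries, and were fewer with Keluoxin (difference of -10.4 points, limma adjusted p = 0.00540). Most arms shared this direction: limma called 57.3% of the 382 arms lower, and the median difference over arms was -6.11 points. The difference of miR-204-3p relative to the median arm was not tested. The forms of miR-211-3p were not tested, since fewer than 50 reads were present in Keluoxin replicate 5.

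Reads on both precursors limit the separation of the 5p arms. Of the member reads 14881, or 2.14%, were listed under both hairpins and were shared equally, 14868 of them on the 5p arms of both. At position 17 of the read, 11138 of these carried the A of miR-204-5p and 1759 the T of miR-211-5p, and 1971 carried another base or were too short. Giving the reads with A or T to the miRNA of that base and leaving the others shared, an alternative added after the data were seen, moved the log2 fold change to 0.05 for miR-204-5p and to 0.10 for miR-211-5p, and 140 arms were called. The shares of exact reads and other read forms were not recomputed with this assignment.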

How the data were processed

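Per the labels' protocols, NEBNext small RNA libraries (inserts of 15 to 35 nt) were built from total RNA and run on a NextSeq 500. Tools named in the submitters' processing notes are bcl2fastq, cutadapt, Bowtie and Novoalign, with neither version nor role. Genome build and miRBase release are not given in the sources cited. The deposited counts are raw reads per distinct sequence and precursor, with at least 2 reads each and lengths of 15 to 51 nt, and the authors divided the count of a sequence by the number of its precursors. Undivided reads were counted here. Precursor positions in the deposited files have 5 added.

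Reads were summed per arm, and reads on several arms shared equally. Levels were tested with edgeR 4.0.16 in R 4.3.3 (TMM, filter on low counts, quasi-likelihood, Benjamini-Hochberg at 0.05, 811 arms), and normalized CPM divide counts by TMM-scaled library sizes (biological coefficient of variation 0.480). On simulated data with 811 arms, the fit recovered 13.4% of 67 arms changed 1.5-fold, 53.7% of 67 changed 2-fold and 84.8% of 66 changed 4-fold, and 3 unchanged arms were called. Arm ratios were tested with limma 3.58.1 on log2((5p + 0.5)/(3p + 0.5)) for miRNAs whose arms both had 10 or more reads in 6 libraries. Other measures were tested by exact two-sided permutation over all assignments of 6 and 6 libraries (smallest p 0.00216), and read forms also by limma over 382 arms. Correlations used 100000 resamples. Alternatives were upper quartile, RLE and total scaling, no filter, annotated precursors only, 18 to 26 nt reads, exact reads only, DESeq2 1.42.0, a replicate block and each library left out. Python 3.11.15, pandas 2.3.3, NumPy 2.4.6 and SciPy 1.17.1 were used.

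Named were both arms of both hairpins, for each 5p arm the 5 annotated arms of at least 100 CPM with the highest r, and the tested arms of the eye list. The members, lists and tests were chosen with earlier results of these data known, and single read forms were named by their frequency. Intervals cover counting error only, since the reads carry no molecular identifiers.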

Additional observations from a re-analysis of the deposited data

Results flagged for a closer look

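In 6 of 36 groups of 6 libraries that were examined, 1 library lay far from the others, and it was Keluoxin replicate 4 each time. For independent, normally distributed values chance gives about 1 such group in 20. The 36 groups are measures of the same 12 libraries and partly of the same reads, so the count of 6 is no test of chance. For the members these were miR-204-3p at 91.86 CPM, against 50.73 to 57.49 CPM in the other Keluoxin libraries, the log2 of 5p over 3p reads of mir-204 at 6.279, against 6.963 to 7.233, and the share of miR-204-5p reads with a differing last base at 37.5%, against 45.15% to 46.77%. For the other miRNAs of the eye list they were miR-184-3p at 9994 CPM, against 69.95 to 179.2 CPM, miR-31-5p at 542.8 CPM, against 13.06 to 28.41 CPM, and miR-205-5p at 21.71 CPM, against 0.8154 to 7.647 CPM. The same library had the lowest summed CPM of the photoreceptor cluster, 188168, and the lowest of the 4 tested neuronal arms, 86989, and the highest of the mural arms, 6992. The part of these values in the results was not tested.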

How the results depend on the processing

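Of 322 recomputed values other than counts of called arms, 303 kept their direction and their side of the threshold. The 140 called arms of 811 became 68 of 508 with annotated precursors only and 238 of 2138 with DESeq2, which gave some arms no adjusted p. They became 107 of 2138 with no filter, 96 of 566 with exact reads and 131 of 731 with 18 to 26 nt reads. The other settings that used all libraries tested 811 arms and called 115 to 182. With libraries left out in turn, 72 to 244 of 807 to 846 arms were called. Of the model libraries, this was 244 without replicate 1, 86 without 3, 72 without 4 and 93 without 5. The counts thus rest on unlike numbers of tested arms, and the cause of the changes was not tested. No member arm passed the threshold under any setting. Whether the replicate numbers pair the samples was not tested. Deviations from the group means had correlations of 0.0369 to 0.236 between same-numbered libraries, and differently numbered libraries were not compared. With a replicate block 137 arms were called, with log2 fold changes of 0.06 for miR-204-5p and 0.10 for miR-211-5p. The block gave 0.51 for miR-184-3p and 0.15 for miR-31-5p, against 3.43 and 1.96 without it.

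The log2 fold change of miR-204-5p turned to -0.21 with upper quartile scaling, -0.012 with no filter, -0.047 with exact reads and -0.019 to 0.089 over the left-out libraries, and that of miR-211-5p to -0.18 with upper quartile scaling and 0.0067 to 0.15 over left-out libraries. Left-out libraries gave 0.10 to 0.32 for miR-204-3p and -0.64 to -0.26 for miR-211-3p. They gave -1.78 to -0.53 for miR-205-5p, -0.31 to 3.87 for miR-184-3p and -0.43 to 2.20 for miR-31-5p, the last pair lowest and reversed without Keluoxin replicate 4, where the mir-211 arm ratio (0.44 to 0.81) passed. The log2 ratio of miR-211-5p to miR-204-5p ran from -0.032 to 0.081. Their Pearson r had an unadjusted permutation p under 0.05 with upper quartile (r = 0.858) and total scaling (r = 0.735), against 0.0840 with TMM. The Spearman rho with TMM had an unadjusted permutation p of 0.0128. The difference in miR-204-5p length was -0.0313 nt with exact reads, -0.00525 nt relative to the median arm and -0.00470 to 0.0244 nt over left-out libraries; that in its main start was 0.125 points relative to the median arm and -0.0293 to 0.0102 points over left-out libraries. Relative to the median arm, the main start of miR-211-5p differed by 0.0220 points and its last-base share by 1.31 points (exact permutation test, adjusted p = 0.104), no longer passing.

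Depth limits the 3p arms most, with 47 reads of miR-211-3p in Keluoxin replicate 5. The cause of these changes was not tested.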
